A study of Homo sapiens with 8 samples.

Results

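The arrays described here are the 2 of hairpin shCDK2 #1 and the 2 of the scrambled control, 4 of the 8 arrays of the series. They were chosen by their titles. Each shCDK2 #1 array was set against the scramble array of its own day, and the 2 days served as the repeats. The cells were NB4, an established human line of acute promyelocytic leukaemia, in which a PML-RARA fusion protein holds myeloid cells at the promyelocyte stage. All cultures, the control included, received lentivirus at a multiplicity of infection of 10, and RNA was taken after 2 or 5 days. The submitters call day 2 the early and day 5 the late stage of differentiation. The labels name no differentiating drug. The groups were therefore scramble at day 2, shCDK2 #1 at day 2, scramble at day 5 and shCDK2 #1 at day 5, with 1 array each. The series also holds 2 arrays each of hairpins shCDK2 #3 and shCDK2 #10. The labels do not say whether the arrays came from separate cultures. The spread behind each SE, interval and p-value was pooled over all 8 arrays, those of shCDK2 #3 and shCDK2 #10 included. A p-value here measures only how far these samples spread, which may be technical.

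CDK2 is a cyclin-dependent kinase that pairs with cyclin E and cyclin A and drives entry into and passage through S phase, when DNA is copied. Promyelocytes still divide and make the primary granule enzymes of the neutrophil. During maturation they leave the cell cycle, reduce ribosome production and gain adhesion and chemotactic receptors. The question put by the design is how the transcripts of NB4 cells differ when CDK2 is depleted. Values below are deposited signals on a log2 scale, where a difference of 1 is a factor of 2. A gene stands for its probe set with the highest mean signal, and 12844 genes were bright enough to test (mean above 5.83).

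Before the gene results, the 4 arrays were compared with each other. Their medians over all probe sets lay between 6.34 and 6.43. Over the 12844 genes, the difference between 2 arrays had the smallest spread for shCDK2 #1 at day 2 against scramble at day 5 (SD 0.240), not for a pair of the same construct or day. Scramble at day 2 stood apart. The SD of its differences was 0.316 against shCDK2 #1 at day 2, 0.349 against scramble at day 5 and 0.353 against shCDK2 #1 at day 5. It was the highest of the 4 arrays in 32.6% of genes and the lowest in 37.5%. Every day 2 change given below rests on that single control array. All 11 promyelocyte markers measured, such as MPO (14.12 to 14.35) and PRTN3 (10.60 to 11.18), lay above the filter value in at least 1 of the 4 arrays, with a median signal of 10.20, 9.93, 9.98 and 9.18 in the order of the groups above. Of 19 monocyte and macrophage markers measured, 8 lay under the filter value in all 4 arrays, CD14 (5.15 to 5.50) and CD163 (4.57 to 4.88) among them. The other 11 did not, with S100A4 (12.06 to 12.79), FCN1 (7.96 to 8.74) and CD68 (7.25 to 7.65) among them.

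CDK2 was lower in shCDK2 #1 than in scramble on both days and on all 3 of its probe sets, by more at day 2 than at day 5. On the brightest probe set scramble read 9.10 and shCDK2 #1 read 7.78 at day 2. At day 5 they read 8.19 and 7.89. CDK2 in shCDK2 #1 thus stood at 39.9% of scramble at day 2 and at 81.1% at day 5. Another probe set gave 28.1% on day 2 and 74.0% on day 5, and the dimmest gave 79.7% and 88.1%. The control itself moved: on the brightest probe set CDK2 was 0.91 lower in scramble at day 5 than at day 2, while shCDK2 #1 was 0.11 higher at day 5 than at day 2. The day 5 array of shCDK2 #1 held 43.1% of the CDK2 signal of scramble at day 2. Over both days the change was -0.81 (SE 0.42, 95% interval -1.79 to 0.16), and limma's adjusted p was 1.00, so it did not pass the test. Leaving out 1 of these arrays or a hairpin at a time gave -0.47 to -1.16.

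**Figure D1:**
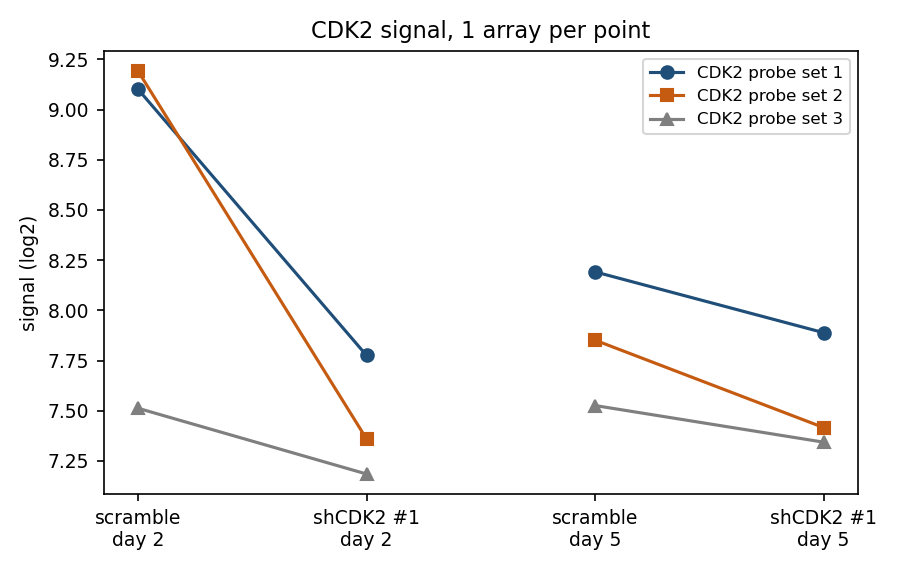
CDK2 signal (log2) of 3 probe sets in the 4 arrays, 1 point per array, with lines joining the arrays of a day. All 3 lie lower in shCDK2 #1 than in scramble on each day, and the 2 brighter ones are also lower in scramble at day 5 than in scramble at day 2.

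No gene passed the test for shCDK2 #1 against scramble over both days. With limma, 0 of 12844 genes (0%) had an adjusted p under 0.05, and the smallest adjusted p was 1.00. At an unadjusted p under 0.05 by limma there were 171 genes, 48 higher and 123 lower in shCDK2 #1. Where no gene differs, a share of 0.05 of the genes is expected there, and 171 of 12844 lies below that share. The smallest unadjusted p by limma was 0.0030, for EPDR1 (0.73 higher, SE 0.17). The changes of the 2 days were unlike each other: 21.1% of genes were higher on both days, 26.3% were lower on both and 52.6% lay in opposite directions. The median change was 0.01 at day 2 and -0.03 at day 5, and Pearson's r between the days across genes, which are not independent replicates, was -0.07. The values that follow are therefore descriptions of 4 arrays.

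A small set of genes differed by at least 0.5 in 1 direction on each day. It held 33 genes higher (0.257% of those tested) and 44 lower (0.343%), 77 in all. With a gene's probe sets averaged there were 35 such genes. PLIN2 and YES1 were the only genes at least 1 higher on both days, and no gene was at least 1 lower on both. Where the groups of a named gene are said below not to overlap, this largely follows from how the gene was picked. It is no further support, and the share of all genes without overlap was not counted.

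PLIN2 encodes perilipin 2, the protein that coats lipid droplets (chr9:19108388-19127492, GRCh38.p14). Its signal was 7.33 in scramble and 8.39 in shCDK2 #1 at day 2, and 7.57 in scramble and 8.75 in shCDK2 #1 at day 5. Both shCDK2 #1 arrays were above both scramble arrays, and both PLIN2 probe sets were higher on both days. The limma change was 1.12 (SE 0.32, adjusted p 1.00). YES1, a SRC-family tyrosine kinase (chr18:721588-812753), read 6.20 and 7.21 at day 2 and 5.89 and 7.10 at day 5, scramble first. Its groups did not overlap either, with a change of 1.11 (SE 0.26, adjusted p 1.00 by limma).

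BHLHE41, a circadian repressor that hypoxia also induces, read 6.19 and 7.07 at day 2 and 6.67 and 7.89 at day 5. JUN, a subunit of the AP-1 transcription factor, read 6.30 and 7.11 at day 2 and 7.08 and 8.13 at day 5. Both shCDK2 #1 arrays stood above both scramble arrays for these genes, and all 4 JUN probe sets were higher on both days. MMP9, the gelatinase of neutrophil tertiary granules, read 9.96 in scramble and 11.03 in shCDK2 #1 at day 2. At day 5 it read 11.31 in scramble and 12.16 in shCDK2 #1. Here the groups overlapped, because scramble at day 5 lay above shCDK2 #1 at day 2. C3AR1, the receptor for complement fragment C3a, was 0.79 and 0.91 higher on the 2 days and CHST2, a sulfotransferase, 0.91 and 1.00. DYNLT1, a dynein light chain, read 10.49 and 11.25 at day 2 and 9.40 and 10.80 at day 5, so that its day 5 shCDK2 #1 array lay above scramble at both days. THBS1, the adhesive glycoprotein thrombospondin 1, was 0.77 and 1.46 higher, but 1 of its 5 probe sets was lower on both days. Its fitted change of 1.12 (SE 0.92) became -0.042 without scramble at day 5 and 2.27 without scramble at day 2. PHLDA1, TMEM245 and the DNAJ co-chaperone gene DNAJB4 complete the 12 named by the rule, with day 2 changes of 1.34, 1.23 and 0.78 and day 5 changes of 0.69, 0.83 and 0.91. Higher on both days were 3 of 4 PHLDA1, 2 of 3 BHLHE41 and 2 of 3 DNAJB4 probe sets, and 1 of DNAJB4 was lower on both.

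The 12 genes named as lower on both days had changes between -0.62 and -1.23 at day 2 and between -0.67 and -1.11 at day 5. RRP15, which is needed to make the large ribosomal subunit (chr1:218285293-218337983), led them. Its signal was 7.31 in scramble and 6.30 in shCDK2 #1 at day 2, and 6.45 in scramble and 5.58 in shCDK2 #1 at day 5. Both shCDK2 #1 arrays were below both scramble arrays, the day 5 one also below the filter value, and only 1 of its 2 probe sets was lower on both days. UTP3, a factor of the small-subunit processome, read 9.53 and 8.67 at day 2 and 8.81 and 8.07 at day 5. MRAS, a RAS-family GTPase, read 8.56 and 7.54 at day 2 and 8.02 and 7.22 at day 5. Both shCDK2 #1 arrays lay below both scramble arrays for UTP3 and MRAS, on all 2 and 3 probe sets respectively lower on both days. CHML, a Rab escort protein, was 1.23 and 0.68 lower. FAHD1, a mitochondrial hydrolase, was 0.69 and 0.67 lower, on all 4 of its probe sets. CEPT1, the enzyme of the last step in making phosphatidylcholine and phosphatidylethanolamine, was 0.70 and 0.68 lower. LYSET, which is needed to sort lysosomal enzymes, was 0.68 and 1.11 lower. KBTBD11, ETFRF1, SMIM10, TEX2 and HS2ST1 complete the set. Lower on both days were 3 of 4 CHML probe sets and 1 of 2 each for KBTBD11 and SMIM10. Of 7 HS2ST1 probe sets 5 were lower and 1 was higher on both days. None of these genes passed limma's test.

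**Figure D2:**
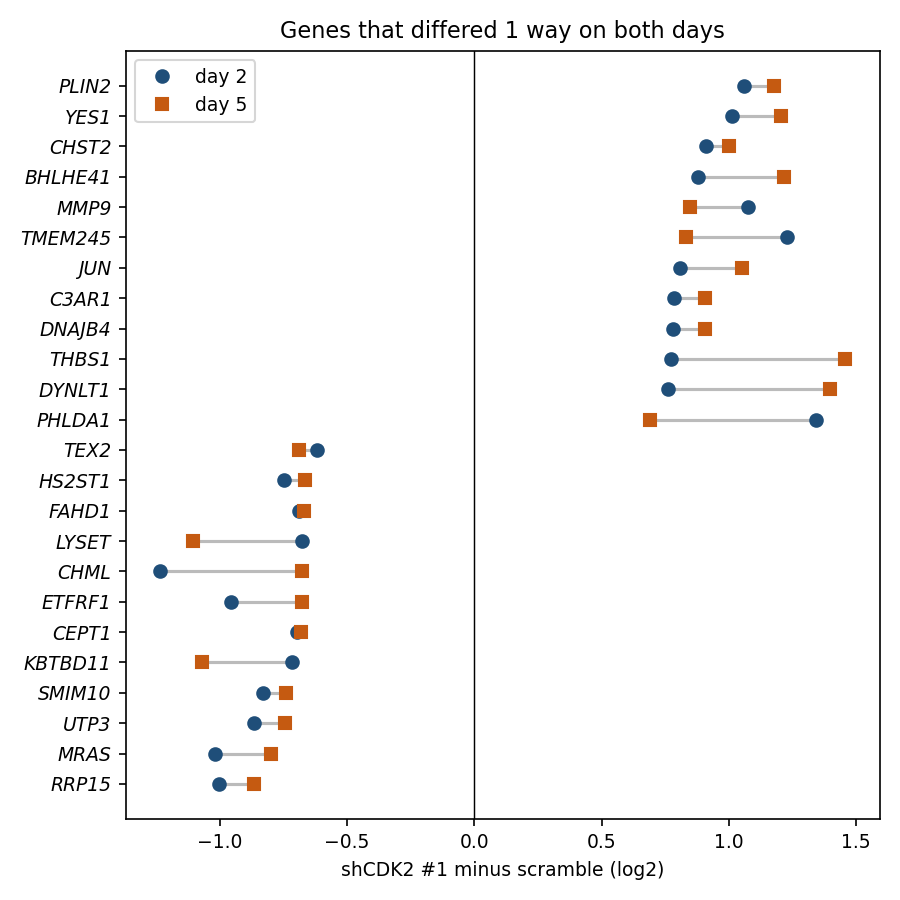
Change of shCDK2 #1 against scramble (log2) at day 2 and at day 5 for the 12 genes per direction with the largest difference on the day that differed less. Each point is the difference of 2 arrays. PLIN2 and YES1 are the only genes beyond 1 on both days.

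Ribosome assembly genes, which encode the nucleolar factors that process ribosomal RNA and build the subunits, were lower in shCDK2 #1 at day 2 and not at day 5. All 44 members tested were lower at day 2, against 48.5% of all genes tested, with a median change of -0.64. At day 5, 20 were lower (45.5%, against 56.7% of all genes tested) and 24 higher, with a median of 0.04. These 20 were the members lower on both days. By limma 0 of 44 passed the test. The day 2 difference moved with scramble at day 2, which was the highest of the 4 arrays for 43 of 44 members.

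Among factors of ribosomal RNA transcription, POLR1B, a subunit of RNA polymerase I, read 9.38 in scramble and 8.48 in shCDK2 #1 at day 2, and 8.75 in scramble and 8.94 in shCDK2 #1 at day 5. The high array was scramble at day 2. Among factors that guide RNA modification, GAR1 read 10.77 and 9.76 at day 2 and 9.66 and 9.90 at day 5. FBL, the methyltransferase fibrillarin, read 12.40 and 11.63 at day 2 and 12.03 and 12.13 at day 5. For all of these genes the other 3 arrays lay below scramble at day 2. NPM1, the abundant nucleolar protein nucleophosmin, read 14.04 and 13.38 at day 2 and 13.77 and 13.83 at day 5. NCL, nucleolin, differed by -0.35 at day 2 and -0.02 at day 5. The scramble control itself was lower at day 5 than at day 2, by a median of 0.56 over the 44 genes, while shCDK2 #1 was 0.10 higher at day 5. At day 5 the members furthest below scramble were RRP15 (-0.87), UTP3 (-0.74), UTP6 (-0.45) and UTP20 (-0.34).

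**Figure D3:**
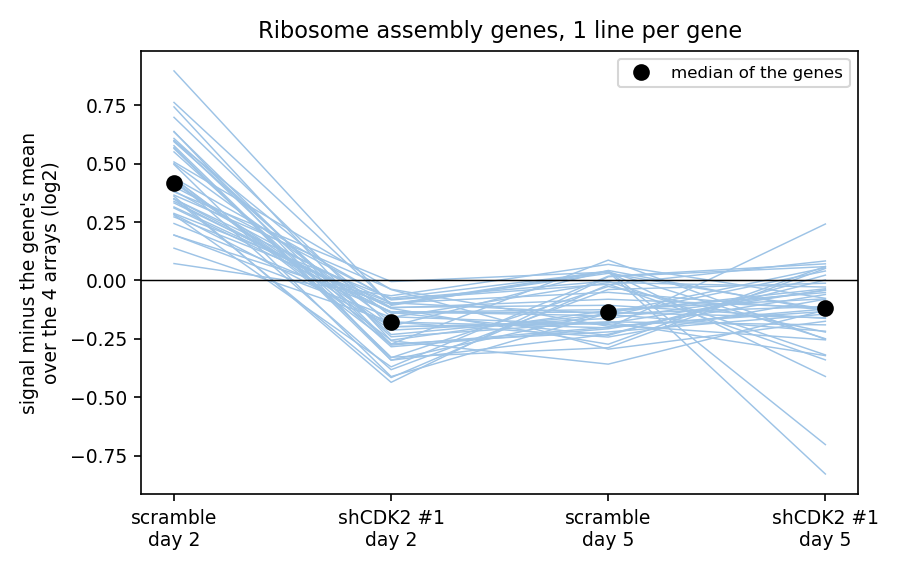
Signal of the 44 ribosome assembly genes in the 4 arrays, as log2 difference from the gene's own mean over the 4 arrays, 1 line per gene. Black points are medians. Scramble at day 2 is the high array for 43 of 44 genes, and the lowest 2 lines at shCDK2 #1 day 5 are RRP15 and UTP3.

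MYC, the transcription factor known to drive ribosome production, and its partner MAX were lower on both days. MYC read 12.47 in scramble and 11.85 in shCDK2 #1 at day 2, and 12.26 in scramble and 11.79 in shCDK2 #1 at day 5. MAX read 10.82 and 10.32 at day 2 and 10.87 and 10.31 at day 5. For both genes each shCDK2 #1 array lay below both scramble arrays. The limma changes were -0.54 (SE 0.17, adjusted p 1.00) for MYC and -0.53 (SE 0.22, adjusted p 1.00) for MAX. Of the 12 tested genes of the MYC, MAX and MXD network, 4 were lower on both days (33.3%, against 26.3% of all genes). Higher on both days was 1 (8.33%, against 21.1%), the MAX-binding repressor MXI1. MXI1 read 9.44 and 9.88 at day 2 and 9.16 and 9.37 at day 5.

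Chaperone genes were mostly lower at day 2 and mostly higher at day 5. Of 27 heat shock and chaperone genes, 24 were lower at day 2 (88.9%, against 48.5% of all genes, median -0.30). At day 5, 5 were lower (18.5%, against 56.7% of all genes) and 22 higher (median 0.18). By limma 0 of 27 passed the test. The mitochondrial chaperonin gene HSPE1 read 10.06 and 9.34 at day 2 and 9.58 and 9.83 at day 5. CCT6A, a subunit of the cytosolic chaperonin, was 0.60 lower at day 2 and 0.53 higher at day 5. Scramble at day 2 was the highest of the 4 arrays for 19 of these 27 genes.

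Of the 32 gene lists, hypoxia-inducible genes outside glycolysis had the largest share higher on both days. Of the 20 tested, 11 were higher on both days (55%, against 21.1% of all genes) and 3 were lower, with medians of 0.19 at day 2 and 0.23 at day 5. By limma 0 of 20 passed the test. NDRG1, a stress-induced differentiation gene, read 8.68 in scramble and 9.50 in shCDK2 #1 at day 2, and 8.80 in scramble and 9.20 in shCDK2 #1 at day 5. Both shCDK2 #1 arrays were above both scramble arrays. ADM, the vasodilator peptide adrenomedullin, read 9.86 and 10.23 at day 2 and 8.89 and 9.66 at day 5. DDIT4, an inhibitor of the mTORC1 kinase, read 10.98 and 11.41 at day 2 and 10.73 and 11.28 at day 5. ADM at day 5 stayed below scramble at day 2, whereas the DDIT4 groups did not overlap. BNIP3, a mitophagy receptor, differed at day 5 alone by more than 0.1, with 10.70 and 10.78 at day 2 and 9.33 and 10.58 at day 5, and there the low array was scramble. P4HA1, a collagen prolyl hydroxylase, went the other way (-0.13 and -0.92). VEGFA, an angiogenic factor, differed by 0.09 and -0.12. Of 22 glycolysis genes tested, many of which hypoxia also induces, 7 were higher on both days (31.8%, against 21.1% of all genes) and 4 lower (18.2%, against 26.3%), with medians of -0.04 and 0.03.

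The promoter windows of PLIN2 and 2 hypoxia list members that were higher on both days are shown because the motif ACGTG, the core letters that hypoxia-inducible factors bind, lies in each. The windows are the 250 bases upstream of the RefSeq start (GRCh38.p14), printed 5′ to 3′ on the gene's strand. UTP20 is added as a ribosome assembly gene. All of these windows hold the longer form CACGTG, the letters that MYC with MAX binds. The windows printed were picked, so the letters they hold are no result about their lists. The window of RRP15 holds no ACGTG on either strand. Capitals mark ACGTG on either strand, together with CACGTG where the letters form it.
PLIN2, chr9:19127493-19127742, minus strand: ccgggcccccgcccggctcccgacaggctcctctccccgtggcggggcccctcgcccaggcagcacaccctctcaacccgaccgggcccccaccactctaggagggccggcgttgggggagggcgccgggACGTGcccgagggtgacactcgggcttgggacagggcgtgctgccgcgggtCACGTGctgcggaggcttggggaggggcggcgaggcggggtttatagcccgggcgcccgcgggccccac
BHLHE41, chr12:26125038-26125287, minus strand: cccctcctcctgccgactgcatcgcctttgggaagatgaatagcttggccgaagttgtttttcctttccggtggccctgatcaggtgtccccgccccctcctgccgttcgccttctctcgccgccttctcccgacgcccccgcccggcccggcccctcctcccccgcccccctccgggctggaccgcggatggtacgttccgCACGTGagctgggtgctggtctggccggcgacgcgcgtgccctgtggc
BNIP3, chr10:131981924-131982173, minus strand: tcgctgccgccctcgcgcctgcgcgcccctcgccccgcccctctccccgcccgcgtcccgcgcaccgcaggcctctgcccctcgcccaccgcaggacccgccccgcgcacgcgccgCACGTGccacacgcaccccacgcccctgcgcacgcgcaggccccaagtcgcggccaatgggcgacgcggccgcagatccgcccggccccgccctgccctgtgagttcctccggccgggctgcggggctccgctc
UTP20, chr12:101279855-101280104, plus strand: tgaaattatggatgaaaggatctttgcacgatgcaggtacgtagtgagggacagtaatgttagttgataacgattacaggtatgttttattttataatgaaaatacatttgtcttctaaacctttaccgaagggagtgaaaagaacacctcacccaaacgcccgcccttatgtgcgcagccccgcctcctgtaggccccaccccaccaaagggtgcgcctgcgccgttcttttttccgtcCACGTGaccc

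Windows of this length were at hand for 14 of the 20 hypoxia list genes, and 9 of them (64.3%) held ACGTG on either strand. Among 10382 tested genes with a window the share was 22.2%, and among all 27305 promoters of the table it was 18.7%. For ribosome assembly genes it was 12 of 38 (31.6%). CACGTG, which contains ACGTG on both strands, was in 5 of the 14 hypoxia windows (35.7%), against 8.57% of those of tested genes. For ribosome assembly genes it was in 4 of the 38 (10.5%), UTP20 among them, which is near the share of tested genes. These are matches of letters and were not tested.

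**Figure D4:**
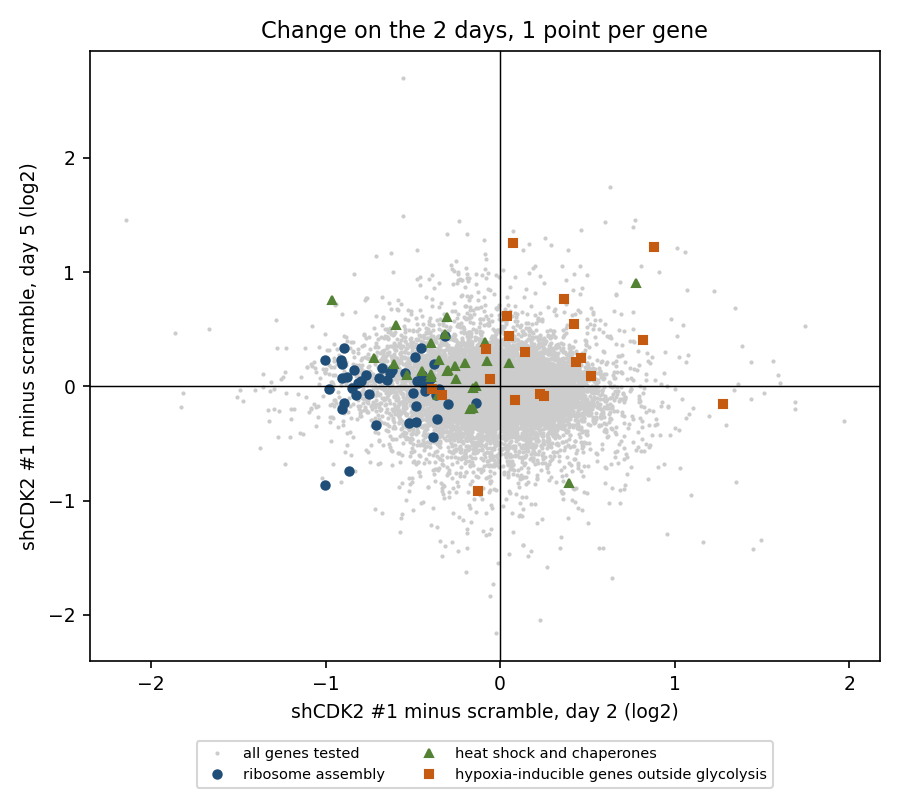
Change of shCDK2 #1 against scramble at day 2 (horizontal) and day 5 (vertical), log2, 1 point per gene. The 44 ribosome assembly genes lie left of 0, on both sides of 0 at day 5. Of the 20 hypoxia-inducible genes, 11 lie above 0 on both days.

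Among cell cycle genes, the nearest to the function of CDK2, those of CDKs and cyclins, replication and mitosis were slightly lower at day 2. By their medians they were slightly higher at day 5. Of 21 CDKs, cyclins and their regulators tested, 17 were lower at day 2 (81.0%, against 48.5% of all genes, median -0.22), CDK2 itself among them. At day 5, 6 were lower (28.6%, against 56.7%) and 15 higher (median 0.08). CCND2, cyclin D2, read 11.94 and 11.61 at day 2 and 11.89 and 10.40 at day 5, with shCDK2 #1 at day 5 as the low array. CDK7, the kinase that activates other CDKs, read 9.88 and 9.29 at day 2 and 9.52 and 9.20 at day 5. Of the cyclin partners of CDK2, CCNE1 read 8.98 and 8.95 at day 2 and 8.54 and 8.75 at day 5. CCNE2 read 7.44 and 7.99, then 7.71 and 7.74, and CCNA2 read 10.55 and 10.51, then 10.60 and 10.57. CDKN1A, the CDK inhibitor p21, was 0.87 and 0.26 higher, and scramble at day 2 was its lowest array. Of 35 DNA replication genes, 26 were lower at day 2 (74.3%) and 13 at day 5 (37.1%), with medians of -0.15 and 0.06. MCM10 and CDC45, which start the replication fork, were lower on both days (-0.37 and -0.32 for MCM10, -0.29 and -0.39 for CDC45). PCNA, the sliding clamp, read 12.75, 12.66, 11.64 and 12.67 over the groups in order, so that scramble at day 5 was the low array. Of 37 mitosis and spindle genes 23 were lower at day 2 (62.2%) and 15 at day 5 (40.5%), with medians of -0.09 and 0.03. On both days 6 were higher (16.2%, against 21.1% of all genes) and 7 lower (18.9%, against 26.3%). RB and E2F family genes did not follow: of 18, 10 were lower at day 2 (55.6%) and 9 at day 5 (50%), with medians of -0.06 and -0.004. On both days 3 of them were higher (16.7%) and 4 lower (22.2%). Of 5 CDK inhibitor genes tested, 4 were higher at day 2. E2F6, a repressor of the family, was 0.56 and 0.60 lower, and E2F5, another repressor, was 0.17 and 0.99 higher.

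Among genes of myeloid maturation, receptor genes and monocyte markers were mostly higher at day 2. Myeloid transcription factors were not: of 17 tested, 8 were higher and 9 lower at day 2 (52.9%, against 48.5% of all genes). At day 5, 12 of them were lower (70.6%, against 56.7% of all genes). Of 21 granulocyte surface and chemotactic receptor genes, 18 were higher at day 2 (median 0.29) and 3 lower (14.3%, against 48.5% of all genes). At day 5, 12 were lower (57.1%, near the 56.7% of all genes, median -0.16). ICAM1, an adhesion ligand for leukocyte integrins, read 8.18 and 9.92 at day 2 and 10.09 and 10.62 at day 5. Among integrins, the subunit ITGB2 read 9.25 and 9.96 at day 2 and 10.42 and 9.55 at day 5, and ITGAM read 6.88 and 7.70, then 8.14 and 7.57. For all of these scramble at day 2 was the lowest array, as it was for 15 of the 21 genes. Of 13 monocyte and macrophage markers, 11 were higher at day 2 (median 0.32) and 10 lower at day 5 (76.9%, against 56.7% of all genes, median -0.23). The summed log2 signal of all 19 such markers measured was 114 in scramble and 119 in shCDK2 #1 at day 2, and 120 in scramble and 117 in shCDK2 #1 at day 5. The median of the same 19 markers lay between 6.02 and 6.05 in the 4 arrays. Of all 12844 genes tested, 6612 were higher at day 2. Markers of other lineages lay in the same direction as the monocyte markers at day 2. Higher were 11 of 14 lymphoid, 8 of 9 erythroid and megakaryocyte, and 9 of 11 fibroblast and epithelial genes tested. Scramble at day 2 was the lowest of the 4 arrays for 10, 8 and 6 of the genes of these lists, against 37.5% of all genes. Their summed signals at day 2 were 118 in scramble and 120 in shCDK2 #1 for the 17 lymphoid markers measured, 88.3 and 89.7 for the 13 erythroid and megakaryocyte ones, and 96.5 and 97.6 for the 15 fibroblast and epithelial ones. Of these, 3, 4 and 4 lay under the filter value in all 4 arrays. Bright ones included PAX5 (10.20 to 10.51), TFRC (12.06 to 12.59) and VIM (12.65 to 13.36). Their part in the result was not tested. Fewer cells of a type and less RNA per cell cannot be told apart in these bulk arrays.

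Granule genes were mostly lower at day 5. Of 16 neutrophil granule and enzyme genes tested, 13 were lower at day 5 (81.2%, against 56.7% of all genes, median -0.16), and 8 were lower at day 2. MMP9, given above, was the member furthest above scramble on both days. S100A9 and S100A8, the subunits of calprotectin, read 8.79 and 7.63, and 8.50 and 7.43, at day 5. CYBB, the catalytic subunit of the phagocyte oxidase, read 10.63 and 9.71, and LYZ, lysozyme, 8.73 and 7.96. For each of these shCDK2 #1 at day 5 was the lowest of the 4 arrays, and at day 2 the changes lay between -0.22 and 0.13. Of the 11 promyelocyte markers, 7 were lower on both days (63.6%, against 26.3% of all genes) and 0 were higher. Several of the 7 hardly differed on at least 1 day. SRGN read 14.25 and 14.22 at day 2 and 13.97 and 13.94 at day 5. MPO read 14.15 and 14.12 at day 5, PRTN3 10.76 and 10.73 at day 5, ELANE 6.35 and 6.34 at day 5, and AZU1 9.28 and 9.26 at day 2. CEBPE, a transcription factor of granule genes, read 10.20 and 9.93 at day 2 and 9.98 and 9.18 at day 5, and MYB, a progenitor transcription factor, read 10.97 and 10.77, then 10.56 and 10.22.

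Interferon response genes were mostly higher at day 2. Of 29 tested, 24 were higher at day 2 (median 0.24) and 5 lower (17.2%, against 48.5% of all genes). At day 5, 19 were lower (65.5%, against 56.7%, median -0.03). IRF9, a subunit of the interferon-activated ISGF3 complex, read 6.86 and 7.76 at day 2 and 7.79 and 7.46 at day 5. IFIT2, an antiviral gene, read 6.41 and 7.10, then 6.00 and 6.27, but its fitted change of 0.48 (SE 1.11) ran from -0.87 to 1.82 as single arrays were left out. Of 25 NF-kB and cytokine genes, 6 were higher on both days (24%, against 21.1% of all genes) and 3 lower (12%, against 26.3%). CCL2, a monocyte chemokine, read 10.25 and 10.91, then 11.29 and 12.09. Its fitted change, like those of CD14 and C5AR1, reversed without single arrays, where the day term comes from the other constructs.

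Survival, stress and metabolic genes were divided. BCL2, the survival protein, read 7.60 and 6.54 at day 2 and 6.70 and 6.52 at day 5, with scramble at day 2 as the high array. Among p53 targets, 9 of 21 were higher on both days (42.9%, against 21.1% of all genes) and 4 lower (19.0%, against 26.3%). TNFRSF10B, a TRAIL receptor, was 0.94 and 0.30 higher. Of 18 peroxiredoxin and thioredoxin genes 8 were lower on both days (44.4%, against 26.3% of all genes) and 1 higher (5.56%, against 21.1%). TXNRD1, thioredoxin reductase, read 11.56 and 11.39, then 11.67 and 10.98. Of 20 cholesterol synthesis genes, 13 were lower at day 2 (65%, against 48.5% of all genes, median -0.12). At day 5, 6 were lower (30%, against 56.7%, median 0.20). MSMO1 read 9.09 and 9.15, then 8.75 and 10.00. VLDLR, a lipoprotein receptor, was 0.69 and 0.91 higher. Of the 24 lipid droplet genes tested, PLIN2 included, 8 were higher on both days (33.3%, against 21.1% of all genes). Lower on both days were 5 (20.8%, against 26.3%).

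Taken day by day, 39 genes were at least 1 higher (0.304%) and 66 at least 1 lower (0.514%) in shCDK2 #1 at day 2. At day 5 there were 41 higher (0.319%) and 73 lower (0.568%). With 1 array per group these differences have no replicate check. The largest at day 2 were PLXNC1, a semaphorin receptor (5.70 in scramble, 7.68 in shCDK2 #1), and, in the lower direction, the tetraspanin CD81 (10.78 and 8.63). PNO1, another ribosome assembly factor, read 9.76 and 7.90, and DLD, a subunit of the mitochondrial dehydrogenase complexes, 11.57 and 9.75. ALOX5AP, which is needed to make leukotrienes, read 7.84 and 9.53. The largest at day 5 were CPOX, an enzyme of haem synthesis (6.57 in scramble and 9.26 in shCDK2 #1), and SCARB2, a lysosomal membrane protein (6.96 and 8.71). In the lower direction they were METTL9, a histidine methyltransferase (10.85 and 8.69), and DCTN4, a dynactin subunit (9.98 and 7.93). For METTL9 the other arrays lay between 10.84 and 10.86, so the low value was that of shCDK2 #1 at day 5 alone, and for CPOX the low value was that of scramble at day 5. Another probe set of SCARB2 differed by -0.29 at day 5. The other probe sets of CPOX differed by 1.56 and 0.30 at day 5. For PLXNC1 the other probe set differed by 0.20 at day 2, and the scramble value of 5.70 lay under the filter value.

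Some genes differed by at least 0.5 in opposite directions: 49 were higher at day 2 and lower at day 5 (0.382%), and 40 the reverse (0.311%). GBP2, an interferon-induced GTPase, read 5.17 and 6.66 at day 2 and 6.29 and 4.95 at day 5. TGFBR2, a TGF-beta receptor, read 8.16 and 9.26, then 9.18 and 8.23. In both, shCDK2 #1 at day 2 and scramble at day 5 were the high arrays. CD81 read 10.78 and 8.63, then 9.10 and 10.56, the mirror image. Another probe set of TGFBR2 differed by only 0.15 at day 2 and -0.002 at day 5.

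shCDK2 #1 was then set against the other hairpins, a contrast in which the scramble arrays have no weight. CDK2 itself was 0.02 lower in #10 than in #1 (SE 0.42, 95% interval -0.996 to 0.960, limma adjusted p 0.98) and 0.54 higher in #3 (SE 0.42, interval -0.43 to 1.52, adjusted p 0.56). The intervals leave room for differences of nearly 1 in either direction for #10. By day, the CDK2 difference of #3 from #1 was 1.25 at day 2 and -0.17 at day 5. At day 2 CDK2 read 9.03 in #3, near scramble at 9.10. With limma, 41 genes were higher in #10 than in #1 (0.319%) and 1 was lower (0.00779%), while 0 were higher (0%) and 0 lower in #3, where 1541 genes had an unadjusted p under 0.05 and the smallest adjusted p was 0.080. Without passing the test, #3 also stood above #1 for several genes given below. At days 2 and 5, #3 read 9.29 and 9.45 for HK1, 10.80 and 11.08 for NDRG1, and 8.24 and 10.84 for FCGR2B. Not every gene called in #10 did so: RGS1 read 6.16 in #1 and 5.95 in #3 at day 2.

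FCGR2B, an inhibitory Fc receptor, read 6.34 and 6.21 in shCDK2 #1 at days 2 and 5, and 10.74 and 12.07 in shCDK2 #10. Scramble was at 5.93 and 6.12, so #1 stayed close to the control. The difference between the hairpins was 5.13 (SE 0.58, adjusted p 0.042 by limma). Its probe sets may not separate it from near-identical FCGR2 genes. ZFP36L1, which promotes decay of AU-rich messages, was 4.48 higher in #10 (SE 0.64, adjusted p 0.047 by limma), but only 0.92 higher when all its probe sets were averaged. CLEC2B, a C-type lectin, was 3.53 higher (SE 0.43). HK1, a hexokinase, read 7.14 and 7.54 in #1 and 9.80 and 10.70 in #10, a difference of 2.91 (SE 0.24, adjusted p 0.039 by limma). PIR, an iron-binding nuclear protein of the antioxidant list, was the gene lower in #10, with 8.62 and 8.74 in #1 and 6.42 and 6.70 in #10.

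The hypoxia list held 8 of the genes higher in #10 among its 20, against 0.319% of all genes (SPAG4, HILPDA, BNIP3L, MXI1, ADM, NDRG1, ZNF395 and INSIG2), and glycolysis 4 of 22 (HK1, ALDOC, ENO2 and PFKFB4). For NDRG1 the #1 arrays, at 9.50 and 9.20, lay between scramble (8.68 and 8.80) and #10 (11.28 on both days). PLIN2 lay in the same order, with 8.39 and 8.75 in #1 and 10.51 and 11.21 in #10. HILPDA, an inhibitor of lipid breakdown, did not: it was 0.39 and 0.02 lower in #1 than in scramble, and 2.83 higher in #10 than in #1 (SE 0.41, adjusted p 0.047 by limma). The number of calls, 42, was 0 without shCDK2 #1 at day 5, 0 with each array centred on its median and 124 without shCDK2 #1 at day 2.

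**Figure D5:**
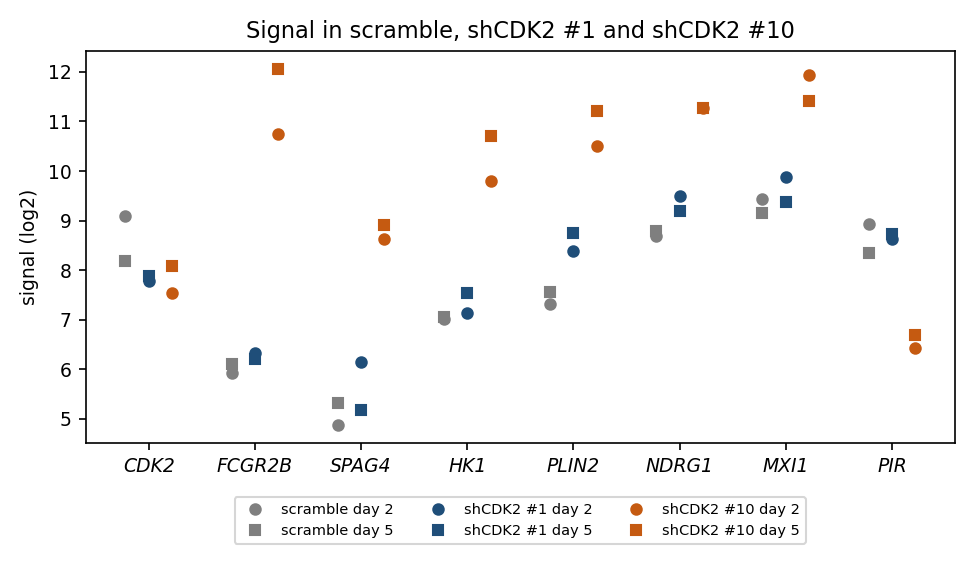
Signal (log2) of 8 genes in scramble, shCDK2 #1 and shCDK2 #10, with circles for day 2 and squares for day 5, 1 array per point. CDK2 is at like levels in both hairpins, while FCGR2B, HK1 and PIR in shCDK2 #1 stay close to scramble and differ in shCDK2 #10.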

How the data were processed

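The authors deposited log2 signals for 49395 Affymetrix probe sets on 8 arrays, each labelled from 6 micrograms of total RNA. Partek is named in the submitters' processing notes. Sources used here do not give its version or the normalization, and the log2 scale was read from the range of the values. The platform annotation paired 44994 probe sets with 1 gene, 1832 with several and 2569 with none. Symbols were updated through RefSeq's gene list, which held 44967 of them. A gene was tested if its mean over the 8 arrays exceeded the 40th percentile of the probe-set means.

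limma 3.58.1 in R 4.3.3 (data.table package, version 1.17.8) was fitted to the values as deposited over all 8 arrays, with terms for construct and day, which left 3 residual degrees of freedom (prior 4.54). Tests were two-sided, with Benjamini-Hochberg adjustment over 12844 genes and a threshold of 0.05. The fit was tested on simulated data. The number of arrays limits the precision.

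The members and the 32 gene lists were chosen with earlier results of these data known. Named were CDK2, up to 12 genes per direction moving 1 way on both days, 5 per day and direction, 5 per opposed order, up to 4 with the largest mean change per list, and 5 called genes per direction between hairpins. Other list members were named after their values were seen. Loci without a gene name, non-coding RNAs and open reading frames were passed over. Alternatives were quantile normalization, median centring, other filters, averaging a gene's probe sets and a trended prior. Arrays of scramble and shCDK2 #1 were also left out singly, and those of the other hairpins only as a whole hairpin.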

Additional observations from a re-analysis of the deposited data

Results flagged for a closer look

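For 14 genes named by day or by opposed order, shCDK2 #1 differed from scramble by at least 0.5 on each day, in opposite directions. Named genes with a smaller difference on either day, such as PNO1 and PLXNC1, are not counted. With 1 array per group, these differences between the days were not tested. Given as the day 5 change minus the day 2 change, on the log2 scale, those lower at day 2 and higher at day 5 were CD81 (3.60), CPOX (3.25), SLC7A5 (2.17), TUBA1A (2.04), CRYZ (1.82), CHORDC1 (1.73), PALS2 (1.54) and PEX3 (1.54). CD81 is a tetraspanin and SLC7A5 the leucine transporter LAT1. Those higher at day 2 and lower at day 5 were ATOSB (-2.87), GBP2 (-2.84), AP1S2 (-2.52), SLC30A7 (-2.32), GLIPR1 (-2.25) and TGFBR2 (-2.05). SLC30A7 is a zinc transporter of the Golgi. Other probe sets did not always show these differences. At days 2 and 5, another set differed by -0.03 and 1.56 for CPOX and by -0.11 and 0.14 for SLC7A5. For SLC30A7 it was 0.16 and -1.46, and for TGFBR2 0.15 and -0.002. Of 5 AP1S2 probe sets, 2 were higher on both days. The directions were opposed on all probe sets of CHORDC1 (8), GLIPR1 (6), PEX3 (4), GBP2 (2) and TUBA1A (2).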

How the results depend on the processing

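The count of genes called for shCDK2 #1 against scramble was 0 under every alternative run. Calls between #10 and #1, 42 as reported, were 0 with each array centred on its median and 0 with the 60th percentile filter. They were 19 with a gene's probe sets averaged, 71 with a trended prior, and 0 to 124 with single shCDK2 #1 arrays left out. No #10 array was left out for this count. Between #3 and #1 a trended prior gave 1 call. Genes past 0.5 on both days numbered 77, and 35 with probe sets averaged. Leaving out single arrays reversed 8 changes, with ranges of -0.34 to 1.08 for C5AR1, -0.21 to 1.67 for CCL2, -1.05 to 1.66 for CD14, -0.71 to 0.070 for CXCR4, -0.14 to 0.91 for IFIH1, -0.87 to 1.82 for IFIT2, -0.18 to 0.91 for PFKFB3 and -0.042 to 2.27 for THBS1. With an array left out, the fit placed the remaining array of that construct through a day term taken from the other constructs. These include #3 and #10. For all 8 genes the change against scramble had 1 sign on both days, such as 0.31 and 0.30 for CD14. The reported fit pairs the arrays by day, and the labels give no replicate numbers for a further block.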
